A study of Mus musculus with 9 samples.

Results

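The genes described here encode the machinery that stores, releases and recaptures calcium in the heart muscle cell. They are Atp2a2, Ryr2, Pln, Casq2, Slc8a1, Trdn, Jph2, Hrc, Camk2d and Asph, taken from the deposited table by gene symbol, which gave 10 of its 29237 genes. The table covers 9 libraries of mouse heart mRNA, 3 in each of the groups labelled TPTN, DOX and control. Mice of all groups were C57BL/6, wild type and between 8 and 12 weeks old. TPTN is the group treated with an agent known here only by that abbreviation, DOX is the doxorubicin model of dilated cardiomyopathy, made with an anthracycline used against cancer that can injure heart muscle, and control is the normal group of the design text. Whether the TPTN animals also received doxorubicin, and at what dose or day either agent was given, is not stated in the labels. Beyond replicate numbers nothing states that libraries came from separate animals, so p-values measure the spread between these samples, which may be technical.

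With each heartbeat a small entry of calcium through the L-type channel opens the ryanodine receptor, Ryr2, in the membrane of the sarcoplasmic reticulum, and calcium leaves the store to start contraction. Relaxation follows as the calcium pump SERCA2a, encoded by Atp2a2, returns calcium to the store under the brake of phospholamban (Pln), while the sodium-calcium exchanger (Slc8a1) moves the rest out of the cell. Casq2 and Hrc bind calcium inside the store, Trdn and Asph (junctin, among other products) tie that buffer to the channel, Jph2 holds the store membrane against the cell surface, and the kinase encoded by Camk2d phosphorylates both channel and phospholamban.

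Promoter sequence is shown for the 3 genes on which the comparisons below mainly turn: Ryr2, which had the largest change of the 10 in DOX against control and in TPTN against DOX, Pln, which differed little, and Jph2, which stood highest in TPTN. Each line holds the 250 bases before the annotated start, from RefSeq on GRCm38.p6, 5′ to 3′ on the strand of the gene. The Ryr2 sequence is the minus strand of chr13:12106946-12107195, the Pln sequence the plus strand of chr10:53337436-53337685 and the Jph2 sequence the minus strand of chr2:163397994-163398243. RefSeq starts need not match the GENCODE gene positions given below. The Pln stretch ends at 53337685, inside the gene as GENCODE places it, from 53337667. Capitals mark matches to any of 5 short motifs, searched on either strand. The TATA box was searched with the letters TATAAA. For the CAAT box the search used the letters CCAAT, and for the GC box it used the letters GGGCGG. The letters of the GATA motif were AGATAA. Those of the E-box were CANNTG, where N stands for any base, and this motif is its own reverse complement.
Ryr2: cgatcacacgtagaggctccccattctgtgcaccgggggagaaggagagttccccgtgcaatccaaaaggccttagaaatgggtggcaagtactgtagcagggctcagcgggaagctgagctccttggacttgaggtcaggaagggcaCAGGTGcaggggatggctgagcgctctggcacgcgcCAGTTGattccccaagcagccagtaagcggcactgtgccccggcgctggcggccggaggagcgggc
Pln: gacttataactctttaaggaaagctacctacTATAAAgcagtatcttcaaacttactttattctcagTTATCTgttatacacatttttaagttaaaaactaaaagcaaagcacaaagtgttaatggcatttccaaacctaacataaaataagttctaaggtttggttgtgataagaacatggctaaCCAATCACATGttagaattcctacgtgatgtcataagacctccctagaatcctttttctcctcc
Jph2: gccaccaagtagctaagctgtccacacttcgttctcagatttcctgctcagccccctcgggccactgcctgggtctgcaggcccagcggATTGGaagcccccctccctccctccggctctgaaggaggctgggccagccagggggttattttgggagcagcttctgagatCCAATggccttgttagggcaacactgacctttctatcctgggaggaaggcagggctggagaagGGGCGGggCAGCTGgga

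The sequences differ in composition. The Ryr2 promoter had 63.2% G and C, and 20% of the 32851 promoter entries of the same length had more; the Pln promoter had 32.8%, and only 2.92% had less. Their median was 52.4%. Pln held 1 TATA box, 1 CAAT box, 1 GATA motif and 1 E-box, the CAAT box and the E-box side by side without shared letters, although the letters of these motifs can overlap. Ryr2 held 2 E-boxes and none of the other motifs, and Jph2 held 2 CAAT boxes, 1 GC box and 1 E-box. These motifs are common: the TATA box was in 12.4% of all promoters, the CAAT box in 33.8%, the GC box in 32.7%, the GATA motif in 9.99% and the E-box in 66.2%. Entries were matched for 7 of the 10 genes, all but Atp2a2, Trdn and Asph. The other 4, Casq2, Slc8a1, Hrc and Camk2d, ranged from 41.6 to 68.4% G and C, and a second entry of Jph2, shifted along the same stretch, had 62.8% where the printed one had 62%. The Camk2d stretch, 126596701 to 126596950, lies inside the gene as GENCODE places it, from 126596302.

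All 10 genes were expressed in every library. FPKM, fragments per length of transcript, scaled to the mapped fragments of the library, allows genes to be set side by side per length. On that scale the mean level over the 9 libraries ran in the order Atp2a2 (1419.4 FPKM), Pln (1205.5), Casq2 (264), Hrc (238), Jph2 (91.8), Ryr2 (29.3), Trdn (17.9), Slc8a1 (10.9), Asph (8.91) and Camk2d (4.03). Each gene stood above the next in 9 of 9 libraries, apart from Casq2, which was above Hrc in 7 of 9. Atp2a2 and Pln ranked 34 and 40 among all genes by mean level. The heart forms carried most of their families: Atp2a2 took 99.8 to 99.9% of the FPKM of the 3 SERCA pump genes, Ryr2 99 to 99.9% of the 3 ryanodine receptor genes, Casq2 98.4 to 99.7% of the 2 calsequestrin genes, Slc8a1 98.1 to 99% of its 3 exchangers and Jph2 94.4 to 97.2% of the 4 junctophilins. Camk2d was an exception and took 26.2 to 30.5% of the 4 CaMKII genes. Camk2g averaged 5.64 FPKM and was above Camk2d in every library.

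**Figure D1:**
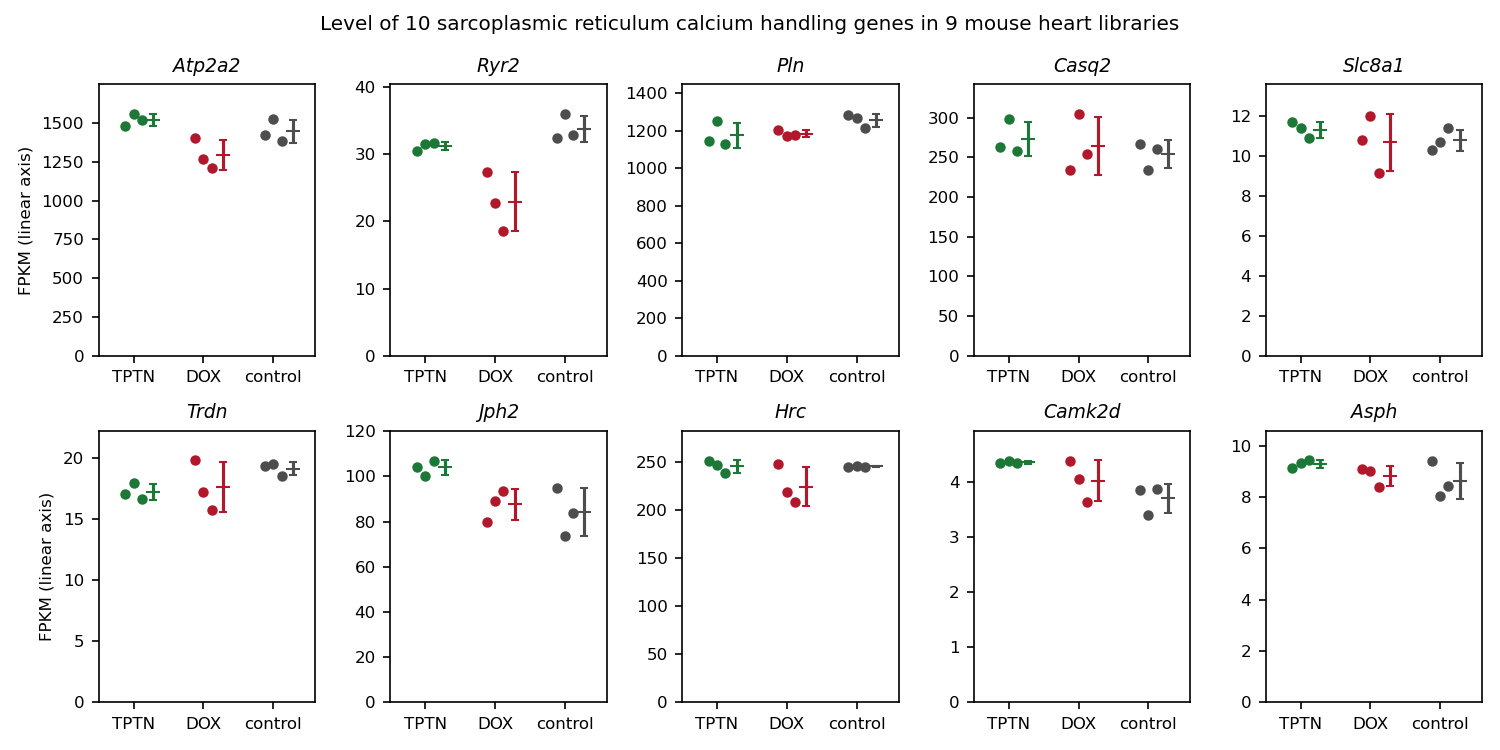
FPKM (linear axis from 0) of each of the 10 genes in TPTN, DOX and control hearts; points are the 3 libraries in order of replicate number, and the bar beside them gives the mean and SD (n = 3). The 3 DOX libraries of Ryr2, at 27.3, 22.7 and 18.6 FPKM, lie below all 6 others. The 3 TPTN libraries of Jph2 lie above all 6 others. Every panel but that of Ryr2 shows at least 1 pair of groups that overlaps.

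A single library stood apart, DOX replicate 1. Its 9 atrial heart muscle markers, all listed in the table, summed to 2636.4 FPKM. The sum was 298 and 205 FPKM in DOX replicates 2 and 3, 61.2 to 127 FPKM in the TPTN libraries and 57.8 to 156 FPKM in control. Outside DOX replicate 1 most of each sum was a single marker, Nppa, at 288 and 195 FPKM in DOX replicates 2 and 3. Myl7, another of the markers, was at 0.764 and 0.737 FPKM in these 2 libraries and at 539 FPKM in DOX replicate 1. Sln, the gene of sarcolipin, the atrial inhibitor of the pump, was at 85.3 FPKM in DOX replicate 1 and at 0.0693 FPKM or less elsewhere. Heart muscle genes listed as ventricular markers (8 of 8 found) summed to 17804.0 to 18764.1 FPKM in TPTN, 17434.9 to 19997.5 FPKM in DOX and 16320.1 to 18271.1 FPKM in control. Whether atrial muscle also expresses these genes was not tested, so this sum does not measure ventricular content. The red cell markers ranged from 447 to 603 FPKM in TPTN, 331 to 971 FPKM in DOX and 396 to 944 FPKM in control. Fibroblast markers reached 109 FPKM in DOX replicate 1 and 75.8 to 93.4 FPKM elsewhere, endothelial markers spanned 109 to 133, macrophage markers 50.2 to 68 and smooth muscle and pericyte markers 133 to 199 FPKM. Skeletal muscle was listed for 8 of 9 markers, and 6 of these averaged under 0.5 FPKM. Their sum was nonetheless 530 to 729 FPKM, nearly all from Ckm (409 to 582 FPKM) and Acta1 (66.5 to 257 FPKM). Whether Ckm and Acta1 came from heart muscle itself was not tested. Read depth is not known from these values.

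Of the 10 genes, 1 passed the threshold in DOX against control, and it was lower: Ryr2. The threshold is an adjusted p under 0.05 (limma, Benjamini-Hochberg) across the 12500 genes that averaged at least 0.5 FPKM. The fit called 2.63% of these genes, 2.23% higher and 0.4% lower in DOX. Against DOX, none of the 10 passed in TPTN in the limma test, where 3.26% of all genes were called (0.792% higher and 2.46% lower in TPTN), and 3 of the 10 had an unadjusted p under 0.05, beside 20.6% of all genes. Against control, none of the 10 passed in TPTN in the limma test, where 0.72% of all genes were called (0.336% higher and 0.384% lower in TPTN), and 2 of the 10 had an unadjusted p under 0.05, beside 13.1% of all genes. The number in DOX against control at an unadjusted p under 0.05 was 2, beside 18% of all genes. The comparisons with control share the control libraries, and those with DOX the DOX libraries, so their values are not independent of each other.

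The libraries of the groups did not overlap for 2 of the 10 genes in DOX against control, both lower in DOX, beside 22.8% of all genes (17.7% higher and 5.1% lower). In TPTN against DOX 4 did not overlap, all higher in TPTN, beside 24.5% (10.4% higher and 14.1% lower). In TPTN against control 4 did not overlap, 2 higher and 2 lower, beside 21.3% (15.2% higher and 6.03% lower). The median log2 change, on the log2(FPKM + 1) scale, was -0.054 over the 10 genes and 0.044 over all genes in DOX against control. It was 0.092 beside -0.0079 in TPTN against DOX, and 0.07 beside 0.037 in TPTN against control. Between replicate libraries the 10-gene median had an SD of 0.056 in DOX against control and 0.061 in TPTN against DOX. The medians were not tested. The 10-gene median in DOX against control was -0.017 when DOX replicate 3 was left out and -0.091 when DOX replicate 2 was, and leaving out DOX replicate 3 gave 0.036 in TPTN against DOX. When the FPKM sum used for scaling left out the mitochondrial genes and their nuclear copies, the 10-gene medians were -0.21, 0.21 and 0.039 in that order of comparisons, beside all-gene medians of -0.071, 0.085 and 0.015.

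**Figure D2:**
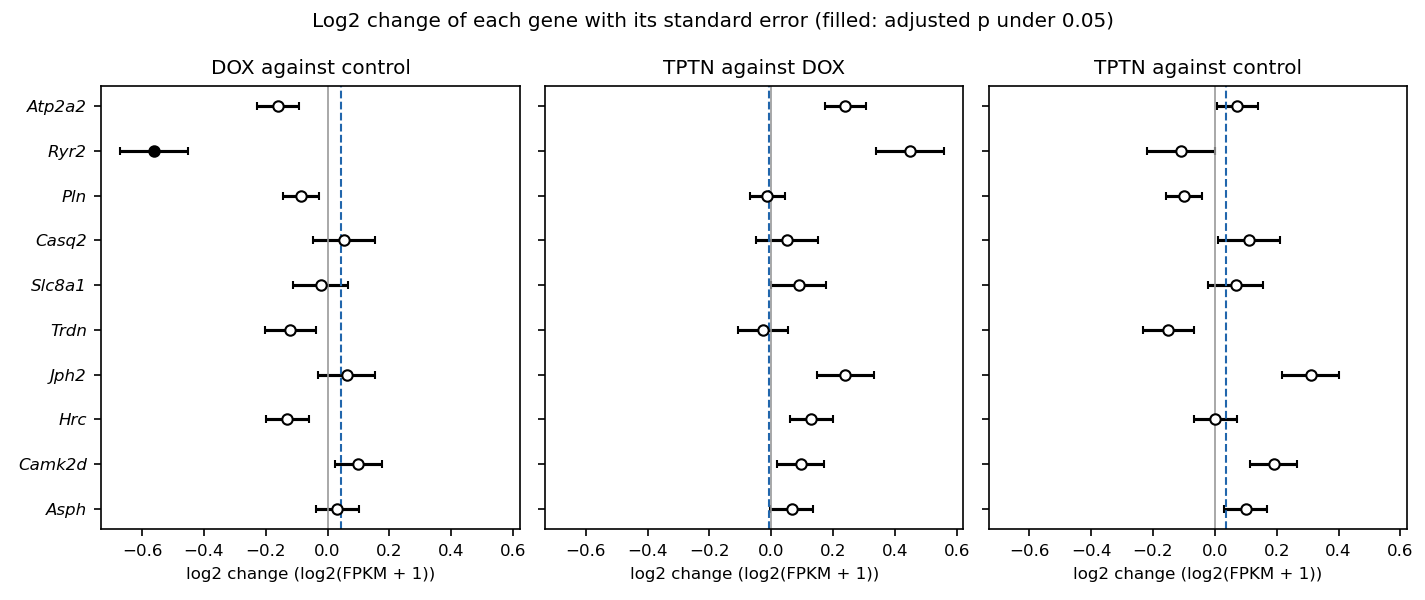
Log2 change on the log2(FPKM + 1) scale with its standard error for the 10 genes in the 3 comparisons; a filled point passed the threshold and the dashed line is the median of all tested genes. Ryr2 at -0.56 in DOX against control is the only filled point.

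The mRNA of the release channel was lower in the DOX libraries. Ryr2 (ENSMUSG00000021313, minus strand of chromosome 13 from 11553102 to 12106945 on GRCm38) was at 30.5, 31.5 and 31.6 FPKM in the TPTN libraries, 27.3, 22.7 and 18.6 FPKM in DOX and 32.4, 36 and 32.8 FPKM in control. All DOX libraries were below every TPTN and control library, and the TPTN libraries in turn lay just below all control libraries. Ryr2 fell to 22.9 ± 4.35 FPKM in DOX, against 33.7 ± 1.99 FPKM in control (SD, n = 3 each), a ratio of 0.678 and a log2 change of -0.56 (SE 0.11, limma adjusted p = 0.0327). In bulk tissue, fewer cells of a type and less RNA per cell cannot be told apart.

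TPTN hearts averaged 31.2 ± 0.612 FPKM of Ryr2, a ratio of 1.36 to DOX and a log2 change of 0.45 (SE 0.11), which missed the threshold (limma adjusted p = 0.0577). Without DOX replicate 1, the library with atrial markers and the DOX library with the highest Ryr2, the change in TPTN against DOX was 0.58 and passed (adjusted p = 0.026), and that in DOX against control was -0.69 (adjusted p = 0.0234). The TPTN change also passed with a minimum mean of 1 FPKM (0.45, adjusted p = 0.0451) and under 4 other scalings (0.46 to 0.58). This change against DOX did not pass in 14 of 21 other settings. TPTN differed from control by -0.11 (SE 0.11, adjusted p = 0.748).

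The Ryr2 call in DOX against control was lost without control replicate 1 (log2 change -0.58, limma adjusted p = 0.0593), control replicate 2 (-0.51, 0.12), control replicate 3 (-0.58, 0.0817), DOX replicate 2 (-0.56, 0.0938), DOX replicate 3 (-0.42, 0.0662) and TPTN replicate 3 (-0.56, 0.0524). It was also lost in a fit of only the groups compared (adjusted p = 0.0789) and with no filter on low values (0.174). The direction was kept in all 21 other settings, between -0.72 and -0.42.

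The partners of the channel, Trdn and Asph, did not pass in any comparison. Trdn, the gene of triadin, was at 17, 17.9 and 16.6 FPKM in TPTN, 19.8, 17.2 and 15.7 FPKM in DOX and 19.3, 19.5 and 18.5 FPKM in control. The DOX libraries spread over the range of both other groups, and the TPTN libraries were below all control libraries. The log2 changes were -0.12 in DOX against control (SE 0.081, limma adjusted p = 0.489), -0.027 in TPTN against DOX (adjusted p = 0.89) and -0.15 in TPTN against control (adjusted p = 0.483). Without DOX replicate 1 the change of Trdn in DOX against control was -0.20 (adjusted p = 0.147). Asph, whose transcripts encode junctin, junctate and a hydroxylase, was at 9.12, 9.3 and 9.42 FPKM in TPTN, 9.08, 9.02 and 8.37 FPKM in DOX and 9.41, 8.05 and 8.42 FPKM in control. TPTN libraries stood narrowly above the DOX libraries, and control overlapped both. Its changes lay between 0.031 and 0.10, with adjusted p of 0.621 or more. The gene level value mixes 17 annotated transcripts of Asph, 8 of Trdn and 14 of Ryr2, so a shift between them is not seen here.

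The pump was the most abundant of the 10 genes. Atp2a2 (ENSMUSG00000029467, minus strand of chromosome 5 from 122453513 to 122502225) was at 1479.1, 1559.8 and 1520.3 FPKM in TPTN, 1400.7, 1267.1 and 1211.4 FPKM in DOX and 1425.2, 1527.0 and 1384.0 FPKM in control. Every TPTN library was above every DOX library, while control reached into both. TPTN averaged 1519.7 ± 40.3 FPKM and DOX 1293.1 ± 97.3 FPKM (SD, n = 3 each), a log2 change of 0.24 (SE 0.067, unadjusted p = 0.00522) that missed the threshold (limma adjusted p = 0.085). Without DOX replicate 1 it was 0.29 and passed (adjusted p = 0.0429). It also passed when libraries were scaled to the FPKM sum without mitochondrial genes (0.30, adjusted p = 0.0454) or without their nuclear copies as well (0.37, adjusted p = 0.0274). It did not pass in 18 of 21 other settings. Among these were median ratios (0.25, adjusted p = 0.0617), quantile normalization (0.15, adjusted p = 0.455) and removal of the length trend described below (0.18, adjusted p = 0.108).

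DOX against control gave -0.16 for Atp2a2 (SE 0.067, limma adjusted p = 0.237), with the DOX mean set against 1445.4 ± 73.6 FPKM in control. Only in the scaling without mitochondrial genes and their copies did it pass, at -0.33 (adjusted p = 0.0499). Mitochondrial genes held 48.07 to 48.69% of the FPKM sum in TPTN, 44.69 to 46.25% in DOX and 49.82 to 50.88% in control, so this scaling raises control and TPTN values relative to DOX values. In TPTN against control the change was 0.073 (adjusted p = 0.712), and under quantile normalization it was -0.13.

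Pln (ENSMUSG00000038583, plus strand of chromosome 10 from 53337667 to 53345987), the brake on the pump, did not pass in any comparison. It was at 1145.5, 1252.3 and 1128.4 FPKM in TPTN, 1204.6, 1171.4 and 1177.0 FPKM in DOX and 1283.1, 1269.8 and 1217.3 FPKM in control. DOX libraries were below all control libraries by a narrow margin, and TPTN overlapped both groups. The change was -0.085 in DOX against control (SE 0.058, limma adjusted p = 0.493), -0.012 in TPTN against DOX (adjusted p = 0.929) and -0.10 in TPTN against control (adjusted p = 0.524). In DOX against control it was -0.25 and passed only in the scaling without mitochondrial genes and their copies (adjusted p = 0.0453), and the sign in TPTN against DOX turned positive there (0.12). Pln shares its locus with Gm47644 on the opposite strand, which averaged 36.9 FPKM. The libraries were made with a strand mark, but the strand setting of the counting is not given in the sources used here.

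The store buffers did not pass in any comparison. Casq2, the cardiac calsequestrin gene, was at 263, 298 and 258 FPKM in TPTN, 234, 305 and 254 FPKM in DOX and 267, 234 and 260 FPKM in control. The groups overlapped throughout, and the DOX libraries alone spanned the whole range of the other groups. Its changes were 0.053 in DOX against control (SE 0.1, limma adjusted p = 0.832), 0.052 in TPTN against DOX (adjusted p = 0.816) and 0.11 in TPTN against control (adjusted p = 0.722), and the sign in DOX against control turned negative under each scaling but that without mitochondrial genes alone. Hrc, the histidine-rich calcium binding protein gene, was at 251, 246 and 238 FPKM in TPTN, 247, 218 and 208 FPKM in DOX and 244, 245 and 244 FPKM in control. DOX replicates 2 and 3 were the lowest of the 9 and DOX replicate 1 lay among the other groups. The change was -0.13 in DOX against control (SE 0.069, adjusted p = 0.377), 0.13 in TPTN against DOX (adjusted p = 0.323) and 0.0017 in TPTN against control (adjusted p = 0.994). Without DOX replicate 1 Hrc was -0.20 in DOX against control (limma adjusted p = 0.102) and 0.20 in TPTN against DOX (adjusted p = 0.0768).

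Jph2 (ENSMUSG00000017817, minus strand of chromosome 2 from 163336242 to 163397993), which forms the junction between store and cell surface, was highest in TPTN hearts. It was at 104, 100 and 107 FPKM in TPTN, 80, 89.2 and 93.6 FPKM in DOX and 95, 73.8 and 83.7 FPKM in control. All 3 TPTN libraries were above all 6 others, and DOX and control overlapped. TPTN averaged 104 ± 3.2 FPKM, DOX 87.6 ± 6.98 FPKM and control 84.2 ± 10.6 FPKM (SD, n = 3 each). The log2 change was 0.31 in TPTN against control (SE 0.093, unadjusted p = 0.00743, limma adjusted p = 0.179) and 0.24 in TPTN against DOX (SE 0.093, unadjusted p = 0.0239, adjusted p = 0.168), and neither passed. In TPTN against DOX it did not pass in 19 of 21 other settings. It passed under quantile normalization (0.41, adjusted p = 0.0349) and in the scaling without mitochondrial genes and their copies (0.38, adjusted p = 0.0304). DOX differed from control by 0.062 (adjusted p = 0.784), and the sign turned negative under median ratios, quantile normalization and that scaling.

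The exchanger gene Slc8a1 was at 11.7, 11.4 and 10.9 FPKM in TPTN, 10.8, 12 and 9.15 FPKM in DOX and 10.3, 10.7 and 11.4 FPKM in control. The groups overlapped, with DOX libraries at both ends of the range, and the changes of -0.022 in DOX against control, 0.089 in TPTN against DOX and 0.067 in TPTN against control had adjusted p of 0.931, 0.615 and 0.819 in limma. Camk2d was at 4.34, 4.38 and 4.34 FPKM in TPTN, 4.38, 4.04 and 3.64 FPKM in DOX and 3.85, 3.39 and 3.86 FPKM in control. TPTN libraries were close to each other and all above control, and the DOX libraries overlapped both groups. The change was 0.19 in TPTN against control (SE 0.076, unadjusted p = 0.0302, limma adjusted p = 0.318), 0.095 in TPTN against DOX (adjusted p = 0.52) and 0.10 in DOX against control (adjusted p = 0.571). The value sums over 23 annotated transcripts, and at this low level log2(FPKM + 1) understates a change.

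A ratio between genes of a library is not changed by multiplying the library by a factor, and 3 ratios were compared between each pair of groups. Quantile normalization and removal of the length trend described below are no such factors, and the ratios were not recomputed under them. Pln to Atp2a2, brake over pump, was 0.774, 0.803 and 0.742 in TPTN, 0.86, 0.924 and 0.972 in DOX and 0.9, 0.832 and 0.88 in control. Every TPTN library was below all 6 others, and DOX and control overlapped. The log2 difference was -0.25 in TPTN against DOX (SE 0.061) and -0.17 in TPTN against control (SE 0.047), each with an exact two-sided permutation p of 0.1, the smallest that 3 against 3 allows, and 0.3 adjusted over the 9 ratio comparisons. It was 0.077 in DOX against control (exact permutation p = 0.3), and 0.035 to 0.12 with 1 library left out. Under quantile normalization the log2 changes of Pln and Atp2a2 were 0.10 and 0.15 in TPTN against DOX, and -0.051 and -0.13 in TPTN against control, where the order of the pair is the reverse of that without it. With the length trend removed the log2 changes of Pln and Atp2a2 were 0.033 and 0.18 in TPTN against DOX. In DOX against control they were -0.16 and -0.16.

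Casq2 to Ryr2, buffer over channel, was 8.63, 9.47 and 8.18 in TPTN, 8.58, 13.4 and 13.7 in DOX and 8.24, 6.5 and 7.94 in control. DOX replicates 2 and 3 stood well above the rest, and DOX replicate 1, with the atrial markers, lay among the TPTN libraries. DOX was above control without overlap, by 0.63 on the log2 scale (SE 0.24, exact permutation p = 0.1, adjusted 0.3), or 0.85 without DOX replicate 1. TPTN differed from DOX by -0.41 and from control by 0.22 (exact permutation p = 0.3 and 0.2). Without DOX replicate 1 the difference from DOX was -0.63 (exact permutation p = 0.2, the smallest that 3 against 2 allows), and without control replicate 2 that from control was 0.11 (exact permutation p = 0.4). Slc8a1 to Atp2a2, extrusion over reuptake, overlapped in every comparison, with log2 differences of 0.14 in DOX against control, -0.14 in TPTN against DOX and -0.00057 in TPTN against control (exact permutation p = 0.4, 0.3 and 1). Without DOX replicate 2 the first was 0.033 and the second -0.033, and without control replicate 2 the first was 0.091. With the length trend removed the log2 changes of Casq2 and Ryr2 were -0.012 and -0.50 in DOX against control. They were 0.085 and 0.34 in TPTN against DOX. Those of Slc8a1 and Atp2a2 were 0.041 and -0.16 in DOX against control and -0.024 and 0.18 in TPTN against DOX.

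**Figure D3:**
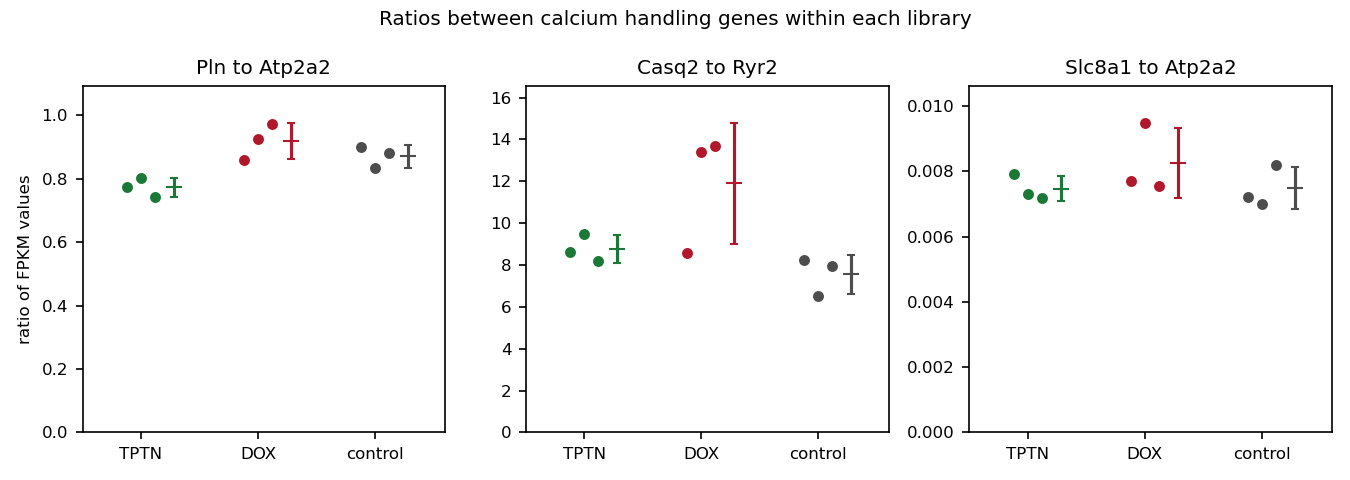
Ratio of FPKM values within each library (linear axes from 0) for Pln to Atp2a2, Casq2 to Ryr2 and Slc8a1 to Atp2a2; points are the 3 libraries of each group in order of replicate number, with mean and SD beside them. The TPTN points of Pln to Atp2a2, at 0.742 to 0.803, lie below all others, and 2 DOX points of Casq2 to Ryr2, at 13.4 and 13.7, lie above all others.

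Other genes of the calcium cycle were read from 7 lists of 80 genes, of which 68 were tested; the rest, among them the skeletal muscle pump gene Atp2a1 at 0.166 FPKM on average, lay below the minimum. In DOX against control 2 were higher and 1 lower, in TPTN against DOX 0 were higher and 1 lower, and in TPTN against control 0 were higher and 2 lower. Of all genes, 2.63, 3.26 and 0.72% were called in the same order of comparisons. At an unadjusted p under 0.05 the numbers were 13, 12 and 12 of the 68, beside 18, 20.6 and 13.1% of all genes. The median changes of the 68 were 0.05, 0.0089 and 0.049 in the same order of comparisons, close to those of all genes. No list of the 7 had more than 2 members called in a comparison.

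Among genes that act on the pump and phospholamban, Ppp1ca, a catalytic subunit of protein phosphatase 1, was at 53.3, 62.8 and 62.5 FPKM in TPTN, 69.9, 71.4 and 75.2 FPKM in DOX and 51.9, 49.4 and 56.9 FPKM in control. DOX libraries were above all others. Ppp1ca rose by 0.45 in DOX against control (SE 0.081, limma adjusted p = 0.0243), and TPTN against DOX was -0.28 (adjusted p = 0.0898). Ppp1r3a, a subunit that targets the phosphatase to glycogen and to the sarcoplasmic reticulum, was at 9.07, 9.43 and 9.76 FPKM in TPTN, 11, 10 and 8.9 FPKM in DOX and 14.6, 13.9 and 12.6 FPKM in control. Control libraries were above all others, and TPTN and DOX overlapped. Ppp1r3a fell by 0.43 in DOX against control (SE 0.083, adjusted p = 0.0294) and by 0.50 in TPTN against control (SE 0.083, adjusted p = 0.0264). The Ppp1ca call and the Ppp1r3a call in DOX against control were lost without any of control replicates 1, 2 and 3 and DOX replicates 2 and 3 (0.40 to 0.50 and -0.48 to -0.36), with adjusted p between 0.054 and 0.0994. Ppp1ca also lost its call under quantile normalization (0.30, adjusted p = 0.0579), without mitochondrial genes and copies in the scaling sum (0.28, adjusted p = 0.0601) and with the length trend described below removed (0.33, adjusted p = 0.0535, or 0.34, adjusted p = 0.0819 without DOX replicate 1 as well). With no filter on low values the adjusted p was 0.139 for Ppp1ca and 0.151 for Ppp1r3a in DOX against control. That Ppp1r3a call was also lost with only the groups compared (adjusted p = 0.0619) and with the length trend removed without DOX replicate 1 (-0.43, adjusted p = 0.06). The Ppp1r3a call in TPTN against control was lost without control replicates 1 or 2 or any TPTN replicate (-0.52 to -0.45, adjusted p between 0.0547 and 0.0927), and with no filter on low values (adjusted p = 0.181).

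Of the other pump regulators, Strit1, the gene of the peptide DWORF, averaged 9.03 ± 1.73 FPKM in TPTN, 7.83 ± 1.64 FPKM in DOX and 9.99 ± 2.27 FPKM in control (SD, n = 3 each; adjusted p of 0.456 or more). Atp2a3, a pump form of non-muscle cells, had changes of 0.25 in DOX against control (limma adjusted p = 0.104) and -0.28 in TPTN against DOX (adjusted p = 0.072). Sln had a mean of 28.5 FPKM in DOX that came from DOX replicate 1 alone.

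In the luminal list Sdf4, the gene of a calcium binding protein of the secretory pathway, was at 8.35, 9.62 and 9.36 FPKM in TPTN, 11.9, 10.8 and 11.5 FPKM in DOX and 9.06, 8.6 and 8.77 FPKM in control. The DOX libraries were above the rest. Sdf4 rose by 0.34 in DOX against control (SE 0.07, limma adjusted p = 0.0345) and fell by 0.30 in TPTN against DOX (SE 0.07, adjusted p = 0.0479). The first call was lost without any single library except TPTN replicates 1 and 2 (0.31 to 0.37, adjusted p between 0.0558 and 0.127), and the second without any single library (-0.33 to -0.24, adjusted p between 0.0595 and 0.147). Without mitochondrial genes and copies in the scaling sum the values were 0.19 (adjusted p = 0.151) and -0.17 (adjusted p = 0.129). Both calls were also lost with only the groups compared (adjusted p = 0.055 and 0.0886) and with no filter on low values (0.15 and 0.173). Quantile normalization (0.26, adjusted p = 0.0606) and removal of the length trend without DOX replicate 1 (0.34, adjusted p = 0.074) ended the first, and a fit without robust estimation (adjusted p = 0.051) and the sum without mitochondrial genes (-0.23, adjusted p = 0.0809) the second. Calr, the gene of calreticulin, was 0.40 in DOX against control (adjusted p = 0.143) and 0.41 in TPTN against control (adjusted p = 0.211). Casq1, the skeletal form of calsequestrin, averaged 1.92 ± 0.327 FPKM in TPTN, 2.23 ± 1.47 FPKM in DOX and 1.82 ± 1 FPKM in control (adjusted p of 0.875 or more).

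Among partners of the release channels Tmem38b, which encodes the potassium-conducting channel TRIC-B of the reticulum, was at 5.36, 5.02 and 5.09 FPKM in TPTN, 6.15, 5.71 and 6.12 FPKM in DOX and 6.84, 8.42 and 6.75 FPKM in control. The groups did not overlap in any pairing, with TPTN lowest and control highest. Tmem38b fell by 0.43 in TPTN against control (SE 0.084, limma adjusted p = 0.049), a call lost without any single library except control replicate 1 (-0.48 to -0.34, adjusted p between 0.0516 and 0.174) and under all 4 other scalings (-0.48 to -0.40). It was also lost with only the groups compared (adjusted p = 0.0806), without robust estimation (0.0587), with no filter on low values (0.232) and with the length trend removed and no DOX replicate 1 (0.0561). Calm3, a calmodulin gene, was 0.28 in DOX against control (adjusted p = 0.0551), and Fkbp1a, the gene of the channel-binding protein FKBP12, was 0.30 there (adjusted p = 0.093).

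In the dyad list Cav3, the caveolin of muscle, had changes of 0.29 in DOX against control (limma adjusted p = 0.0644) and -0.27 in TPTN against DOX (adjusted p = 0.0746), and Cacnb2, an L-type channel subunit gene, had 0.32 in TPTN against DOX (adjusted p = 0.0961). Smdt1, which encodes the EMRE subunit of the mitochondrial uniporter, was 0.26 in DOX against control and -0.26 in TPTN against DOX (adjusted p = 0.0926 and 0.0831). Prkaca, the catalytic subunit of protein kinase A, was 0.26 in DOX against control (adjusted p = 0.0821), and Atp2b1, a plasma membrane calcium pump, was 0.24 in TPTN against DOX (adjusted p = 0.154).

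Log2 changes of all genes moved with transcript length. In DOX against control the median change was 0.14 in 1569 genes whose longest listed transcript had up to 1000 bases, 0.051 in 4603 genes of 2000 to 4000 bases and -0.037 in 235 genes of more than 10000 bases. In TPTN against DOX the medians of the same bins were -0.13, -0.015 and 0.09, and in TPTN against control 0.02, 0.032 and 0.05. Ryr2, with a longest transcript of 16814 bases, is among the longest genes here. Of 36 genes of more than 10000 bases and at least 5 FPKM on average, with a median of -0.10 in DOX against control, Ryr2 at -0.56 was the second lowest, above the noncoding RNA Neat1 at -0.81. In TPTN against DOX it was the third highest, at 0.45 beside a median of 0.15. Slc8a1, with a transcript of 18464 bases, changed by -0.022 and 0.089 in the same comparisons.

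With each library's trend on length removed, an alternative chosen after seeing the data, Ryr2 was -0.50 in DOX against control (limma adjusted p = 0.0301) and 0.34 in TPTN against DOX (adjusted p = 0.0585). Without DOX replicate 1 as well, the values were -0.56 (adjusted p = 0.0307) and 0.40 (adjusted p = 0.0465). The trend was fitted over tested genes of all levels together. Genes of more than 10000 bases had medians of -0.037 in DOX against control and 0.09 in TPTN against DOX. Among those with at least 5 FPKM on average the medians were -0.10 and 0.15. Whether a trend remains at the level of Ryr2 was not tested. Atp2a2, Pln and Casq2, whose longest transcripts have 5674, 2334 and 2556 bases, lie in bins whose medians are between -0.015 and 0.051 in these 2 comparisons. With the trend removed Atp2a2 was -0.16 in DOX against control (limma adjusted p = 0.163) and 0.18 in TPTN against DOX (adjusted p = 0.108). In the same order Pln was -0.16 (adjusted p = 0.134) and 0.033 (adjusted p = 0.743). Casq2 was -0.012 (adjusted p = 0.97) and 0.085 (adjusted p = 0.67).

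**Figure D4:**
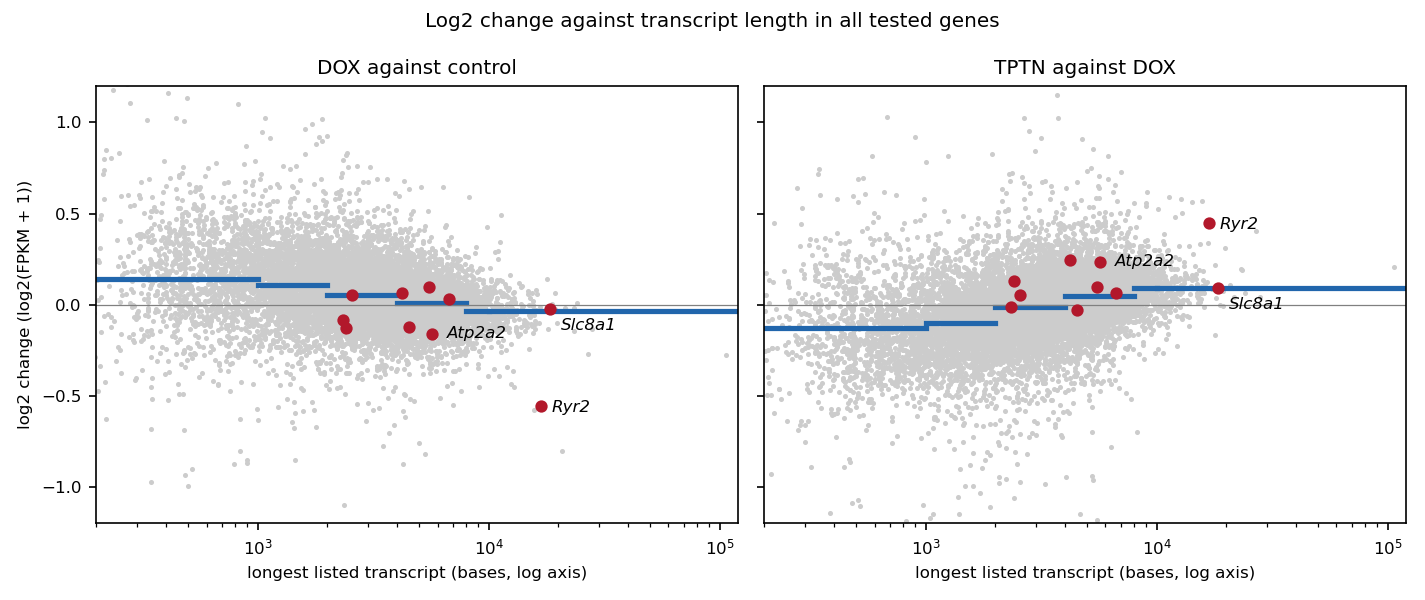
Log2 change (log2(FPKM + 1) scale) against the length of the longest listed transcript (log axis) for all tested genes (grey), the median of each length bin (blue lines) and the 10 genes (red), in DOX against control and TPTN against DOX; 233 and 223 genes fall outside the axes. Ryr2 lies well below its bin in DOX against control and above it in TPTN against DOX, and Slc8a1 of like length lies on the bin median.

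Correlations across the 9 libraries were taken between 9 of the 10 genes, leaving out Camk2d, which averaged under 5 FPKM, and they ranged widely. The highest Pearson correlations of log2(FPKM + 1) were those of Ryr2 with Hrc (0.892), Ryr2 with Atp2a2 (0.884) and Atp2a2 with Hrc (0.846), while Jph2 had -0.107 with Ryr2 and -0.667 with Trdn. These are descriptions over 9 points that share group and library scaling. Among 4140 genes with a proper symbol and at least 5 FPKM on average, those most like Ryr2 included Ttn (0.979), Golga4 (0.958) and Zfp91 (0.952), and the longest Ttn transcript has 106824 bases. Most like Atp2a2 were Iars (0.955), Abce1 (0.951), Uaca (0.946) and Ncor1 (0.937), and genes most like Pln included Ghitm (0.949), Pyurf (0.935) and Ube2b (0.924).

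The authors' deposited table gives 1 p-value, 1 q-value and a mark of significance per gene without naming the groups. In the authors' deposited table Ryr2 had the smallest p of the 10 genes (0.000239, q = 0.00692), followed by Jph2 (p = 0.0318, q = 0.187), Camk2d (p = 0.0603, q = 0.267) and Atp2a2 (p = 0.152, q = 0.439). The other 6 had p of 0.474 or more in the authors' deposited table. Of the 10 genes, the authors marked Ryr2 and Jph2 as significant, beside 2892 marked of all 29237 genes. A q under 0.05 was given for 1047 genes.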

How the data were processed

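The data are 9 strand-marked (dUTP) libraries of polyadenylated mouse heart RNA, sequenced as paired reads, per the labels' protocols. The authors deposited an FPKM value for each gene in each library. The submitters' processing notes name, without roles, HISAT2 2.0.4, StringTie 1.3.4d, cutadapt 1.9, edgeR, DESeq2 and the build GRCm38. FPKM divides by length and library total, so abundant transcripts move all others. The deposited p-value and q-value columns do not name their groups. Low values did not resolve into whole reads (10.86 to 13.91% whole within 0.05), so depth is not known and no counts were tested.

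Values were tested as log2(FPKM + 1) from the deposited FPKM, in 12500 genes with a mean of at least 0.5 FPKM, in 1 limma 3.58.1 model (R 4.3.3, with version 1.17.8 of data.table) with a mean per group, trend and robust moderation on 6 residual degrees of freedom, adjusted by Benjamini-Hochberg over all of them. It was tested on simulated data. Ratios used exact permutation tests in Python 3.11.15 (scipy 1.17.1, numpy 2.4.6, pandas 2.3.3), and plots matplotlib 3.10.9.

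The members and lists were chosen with earlier results of these data known. Named are all 10 genes, every list gene past the threshold, some of the 3 smallest p per list, and Sln, Strit1, Casq1 and Atp2a1. For Atp2a2, Pln and Ryr2 the 4 genes with the highest correlation are named too, except some that are not reported here. Positions are GENCODE M21 on GRCm38, with 29154 of 29237 genes found by identifier. Alternatives were other scalings (median ratios, quantile, sums without the 37 mitochondrial genes or also their 7 nuclear copies), filters, a pseudocount of 0.1, a replicate block, single libraries left out and, added after seeing the data, removal of the length trend by lowess (span 0.3), with and without DOX replicate 1.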

Additional observations from a re-analysis of the deposited data

How the results depend on the processing

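Of 630 values of the 10 genes under 21 other settings, 561 kept their direction and side of the threshold, 8 lost a call (all Ryr2 in DOX against control), 14 gained one and 47 changed sign, none of them a called value; the cause was not tested unless the setting itself shows it. No pairing of libraries by replicate number was seen: deviations of same-numbered libraries correlated between -0.261 and 0.023. Deviations were taken from the mean of each group of 3 libraries. Positive and negative correlations then tend to offset each other, so these values cannot decide whether libraries were paired. Between libraries of unlike number the correlations ranged from -0.251 to 0.398. The highest were control replicate 3 with TPTN replicate 1 (0.398), control replicate 1 with TPTN replicate 2 (0.293) and control replicate 2 with TPTN replicate 3 (0.226). Whether those libraries shared a batch was not tested. With the replicate number as a block, 170, 159 and 62 genes passed in DOX against control, TPTN against DOX and TPTN against control, where 329, 407 and 90 did without it; Sdf4 lost both its calls (adjusted p = 0.081 and 0.102) and Tmem38b its call (0.102), and no call of the 10 genes changed.

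Other counts in DOX against control were 176 with only the groups compared, 2 with no filter, 173 under median ratios, 143 under quantile normalization, 112 with the length trend removed (31 without DOX replicate 1 as well) and 2 to 314 with 1 library left out (205, 2 and 4 without control replicates 1, 2 and 3, 7 and 91 without DOX replicates 2 and 3, 204 without TPTN replicate 3). In TPTN against DOX they were 2 with no filter, 671 without mitochondrial genes and copies in the sum, 185 with the length trend removed (162 without DOX replicate 1 as well) and 45 to 468 with 1 library left out (212 without control replicate 3, 74 and 60 without DOX replicates 2 and 3, 50, 86 and 45 without TPTN replicates 1, 2 and 3). In TPTN against control they were 6 with no filter, 145 without mitochondrial genes in the sum, 148 with the length trend removed and no DOX replicate 1, and 21 to 148 with 1 library left out (34, 29 and 21 without TPTN replicates 1, 2 and 3, 148, 33 and 34 without control replicates 1, 2 and 3). The split of calls moved with scaling: 279 higher and 50 lower in DOX against control became 110 and 63 (median ratios), 76 and 67 (quantile) or 61 and 209 (sum without mitochondrial genes and copies), and 99 and 308 in TPTN against DOX became 149 and 280, 173 and 163, 187 and 170 (sum without mitochondrial genes) or 542 and 129.

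The median of the 10 genes in DOX against control was -0.12 (median ratios), -0.13 (quantile) and -0.21 (sum without mitochondrial genes and copies), and in TPTN against DOX 0.21 in the last. In TPTN against control it was 0.019, 0.021 and 0.039 in those scalings, 0.10 without mitochondrial genes alone and 0.016 with the length trend removed, with or without DOX replicate 1.

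Signs that changed were these. In DOX against control: under median ratios Casq2 (-0.011), Jph2 (-0.0023) and Asph (-0.027); under quantile normalization Casq2 (-0.10), Jph2 (-0.075) and Asph (-0.041); without mitochondrial genes Asph (-0.00047); without their copies as well Casq2 (-0.11), Jph2 (-0.10), Camk2d (-0.036) and Asph (-0.12); with the length trend removed Casq2 (-0.012) and Slc8a1 (0.041, or 0.10 without DOX replicate 1). In TPTN against DOX: Pln and Trdn under quantile normalization (0.10 and 0.054), without mitochondrial genes (0.056 and 0.038) and without copies as well (0.12 and 0.10); with the length trend removed Pln (0.033), Slc8a1 (-0.024) and Asph (-0.0089), and without DOX replicate 1 as well Pln (0.039), Casq2 (-0.0072), Slc8a1 (-0.081) and Asph (-0.037). In TPTN against control: Atp2a2 under quantile normalization (-0.13), and Hrc under median ratios (-0.051), without mitochondrial genes and copies (-0.030) and with the length trend removed (-0.028 with or without DOX replicate 1).

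With 1 library left out, DOX against control ranged from -0.053 to 0.14 for Casq2, -0.11 to 0.074 for Slc8a1, -0.028 to 0.15 for Jph2 and -0.013 to 0.089 for Asph. TPTN against DOX ranged from -0.059 to 0.016 for Pln, -0.031 to 0.16 for Casq2, -0.0072 to 0.17 for Slc8a1 and -0.10 to 0.057 for Trdn. TPTN against control ranged from -0.016 to 0.022 for Hrc and the log2 ratio of Slc8a1 to Atp2a2 from -0.046 to 0.068. Precision is limited by 3 libraries a group and by depth that is not known.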
